A study of Mus musculus with 7 samples.

Results

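Smooth muscle contraction genes were examined in basal cells sorted from the mouse mammary gland on day 2 of lactation. The set comprised 10 genes, which encode 2 actins (Acta2, Actg2), a myosin heavy chain (Myh11), a myosin light chain (Myl9), an actin nucleator (Lmod1) and 5 proteins that bind along the actin filament (Tpm1, Tpm2, Cnn1, Tagln, Cald1). They were taken by gene symbol from a table of 56440 gene models, each symbol matched 1 gene model, and all 10 passed the filter on low values. The cells were dissociated from fresh tissue with trypsin, labelled and sorted by flow cytometry, and RNA was sequenced from 4 control libraries (Ctrl) and 3 libraries labelled a3a6KO, named for integrin subunits α3 and α6. The titles call the controls Blg negative and the mutants Blg positive and DKO. From general knowledge of such mice, Blg is taken to be a Cre transgene under the beta-lactoglobulin promoter, which is active in milk-producing luminal cells rather than in the basal cells sequenced here. All libraries labelled a3a6KO, called mutants here, and no controls carried it, so the transgene and the integrin deletion cannot be told apart. Strain, age and sorting markers were not stated in the labels. The design text calls them biological replicates without naming animals, so p-values measure the spread between these samples.

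Basal cells of the lactating gland are largely myoepithelial cells, epithelial cells with a smooth muscle programme that squeeze milk out of the alveoli when oxytocin is released. In smooth muscle, calcium and calmodulin activate myosin light chain kinase, which phosphorylates the regulatory light chain and lets myosin pull on actin filaments. Tropomyosins, calponin, transgelin and caldesmon bind those filaments and tune their stability and their access to myosin, and leiomodin starts new filaments. Many genes of this programme are driven by serum response factor, SRF, which binds a DNA element called the CArG box.

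The CArG box is written as CC, 6 bases of A or T, then GG, and reads as the same pattern on both strands. It is shown for the members in which it was found, since it is the regulatory sequence the set is known for. RefSeq (GRCm38.p6) gave promoter windows for 7 of the 10 members, of which the 250 bases before the start were searched. Myl9 held a full CArG box, beginning 161 bases before the start, a pattern present in 1.47% of all 32851 promoter windows of this length. When 1 C or G was allowed among the 6 bases, which was chosen after the sequences were seen, Myl9 held another box, 99 bases before the start, and Acta2 held a pair, 84 and 34 bases before it, against 8.59% of all windows. No such pattern was found in the windows of Lmod1, Tpm1, Tpm2, Cnn1 and Cald1, which speaks only of these letters in these windows. Capitals mark the boxes, and each sequence is written 5′ to 3′ on the strand of its gene.
Myl9, chr2:156775283-156775394, plus strand: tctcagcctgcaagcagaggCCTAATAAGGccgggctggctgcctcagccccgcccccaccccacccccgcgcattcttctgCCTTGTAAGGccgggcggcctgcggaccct
Acta2, chr19:34255438-34255467, minus strand: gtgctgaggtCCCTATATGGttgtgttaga
Acta2, chr19:34255388-34255417, minus strand: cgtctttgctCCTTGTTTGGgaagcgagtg

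The MCAT element GGAATG, the site of TEAD factors, was searched on both strands of the same windows, a search likewise added after the first. It was found in 4 of the 7 members, Acta2, Lmod1, Cald1 and Tpm1, against 12.6% of all windows. The 7 members have 8 windows, since Cald1 has more than 1, so the count of genes and the share of windows differ in base. Capitals mark the element in the 30 bases shown for each.
Acta2, chr19:34255502-34255531, minus strand: gagcagaacagaGGAATGcagtggaagaga
Lmod1, chr1:135324671-135324700, plus strand: ccaagattccctGGAATGtcctcaagtttc
Cald1, chr6:34598339-34598368, plus strand: gagcatgcctagGGAATGacaggcatctgc
Tpm1, chr9:67049252-67049281, minus strand: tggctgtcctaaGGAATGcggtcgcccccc

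Depth, taken as the reads counted in gene models, ran from 9368418 reads in a3a6KO replicate 3 to 21548279 in Ctrl replicate 4. Values below are normalised read counts, that is, reads scaled by the authors for library size and not for gene length. The targeted genes were not lower beyond the spread in the libraries labelled a3a6KO. Itga3 lay at 465.5 to 719 in the controls and 494 to 818 in the mutants, and Itga6 at 7764 to 10603 and 8343 to 9083, so these basal cell values do not check the genotype label. As for the labelled cell type, keratin 14 (Krt14) lay at 35785 to 79196 across the 7 libraries. A list of 10 basal markers, Krt14 included, summed to 249318 to 268657 in the controls and 211385 to 264229 in the mutants. Among them the oxytocin receptor, Oxtr, through which milk ejection is triggered, averaged 116511 ± 17135 (SD, n = 4) in the controls and 80558 ± 26523 (SD, n = 3) in the mutants, and it did not pass the test. Krt14 went the other way, at 44929 ± 6599 and 58487 ± 18645, and did not pass either. Of the 10 basal markers, 5 had a log2 fold change above 0 and 5 below, with a median of −0.0054. In limma 1 of them, Itgb4, had an unadjusted p under 0.05 (6.32% of all genes), and in edgeR and DESeq2 2 each. All 3 tests called 0 of the 10. Itgb4 averaged 946.5 ± 196.5 (SD, n = 4) in the controls and 687.9 ± 106.6 (SD, n = 3) in the mutants. Its log2 fold change was −0.45 (SE 0.18, limma adjusted p = 0.741). Summed luminal and secretory markers, milk proteins included, ran from 111021 to 661339 in the controls and from 83603 to 287943 in the mutants. The lowest was a3a6KO replicate 1 and the highest Ctrl replicate 4, and the groups overlapped. Of these 10 markers, 7 had a log2 fold change below 0, where 50.5% of all genes tested did. In limma 0 had an unadjusted p under 0.05 (6.32% of all genes). All 10 endothelial markers had a log2 fold change above 0, where 49.5% of all genes tested did, with a median of 0.997. Of these 10, 7 lay above all controls in every mutant (4% of all genes) and 9 had an unadjusted p under 0.05 in limma (6.32%). On adjusted p, limma and edgeR called 0 and DESeq2 6, where DESeq2 called 0.483% of all genes. The endothelial markers summed to 3927 to 6238 in the controls and 8020.0 to 11367 in the mutants. The part of these cells in the values of the smooth muscle genes was not tested.

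The smooth muscle genes were among the most abundant transcripts of these cells. Acta2 ranked first of all gene models in every library, and Myl9 ranked between 2 and 7. Together the 10 genes took 6.63% ± 0.855 (SD, n = 4) of the reads counted in gene models in the controls. In the mutants they took 6.73% ± 1.03 (SD, n = 3). By library the share was 7.36%, 6.22%, 5.62% and 7.31% in Ctrl replicates 1 to 4 and 6.68%, 7.78% and 5.73% in a3a6KO replicates 1 to 3. The lowest and the highest share were thus those of a control and a mutant, and the groups overlapped. The 95% Wilson intervals of these shares were at most 0.0319 percentage points wide and cover counting error only, since the labels name no molecular identifiers. They take each recovered read as independent, which was not tested.

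Levels were compared between genes as normalised read counts per kilobase of exon in GENCODE vM21, which uses the same mm10 assembly as the deposited table. In Ctrl, Acta2 had 274287 ± 62178 (SD, n = 4) per kb, Myl9 118784 ± 6666, Tagln 48569 ± 4795, Tpm2 32280 ± 5271 and Cnn1 25707 ± 1259 per kb. Actg2 followed with 15764 ± 2534, Myh11 with 6261 ± 1165, Tpm1 with 3759 ± 495, Cald1 with 2651 ± 224 and Lmod1 with 897 ± 196 per kb. Across the 7 libraries, neighbours in this order were separated without overlap, except Tpm2 and Cnn1, and Tpm1 and Cald1. With the length of the principal transcript in place of all exons, Tpm1, a gene of 16 annotated coding transcripts, rose to 9468 per kb, above Myh11 at 6415, and their ranges overlapped, as did those of Tagln and Tpm2. The place of Tpm1 in the order thus differed with the length used for it.

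**Figure D1:**
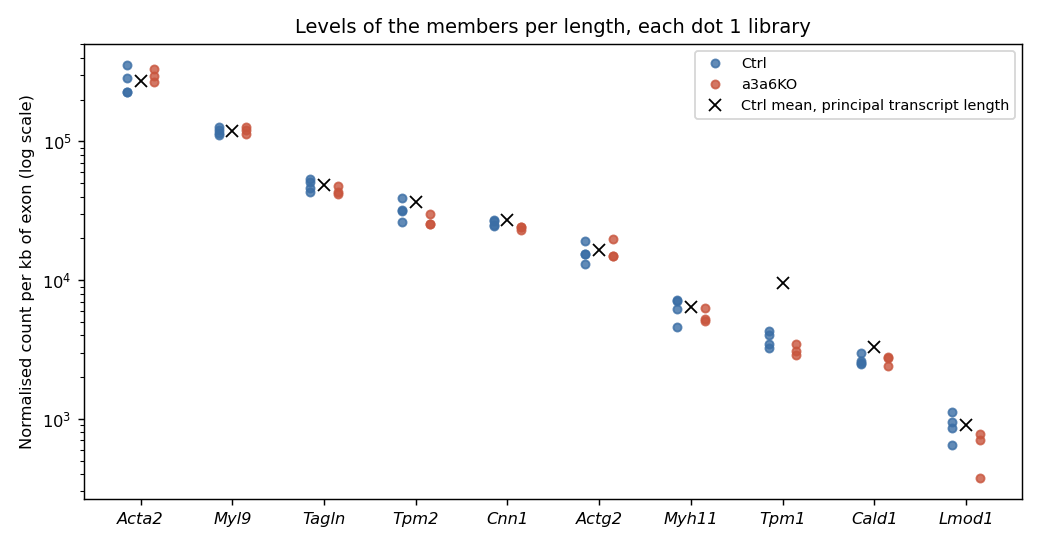
Normalised read counts per kilobase of exon (vertical axis, log scale) for the 10 genes, ordered by their Ctrl mean, with 1 dot per library (blue Ctrl, red a3a6KO) and a cross for the Ctrl mean computed with the principal transcript. Acta2 lies at 274287 per kb in Ctrl and Lmod1 at 897, and the cross departs most from the dots for Tpm1.

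None of the 10 genes differed between a3a6KO and Ctrl at an adjusted p under 0.05 in limma, which tested 16889 genes and called 0 of them (0%). At an unadjusted p under 0.05 limma held 1068 of the genes tested (6.32%) and 0 of the 10. The count tests on recovered reads called 0 of 17228 genes in edgeR (0%, with 1031 at an unadjusted p under 0.05) and 72 of 14914 in DESeq2 (0.483%), none of them among the 10. Of the 10 genes, 7 had a log2 fold change (a3a6KO minus Ctrl) below 0 and 3 above, where 50.5% of all genes tested lay below 0. Their median was −0.12, against −0.0040 over all genes tested. All a3a6KO libraries lay below all controls in 1 of the 10, Cnn1, a pattern held by 3.51% of all genes tested, and none of the 10 showed the opposite, held by 4% of all genes. In bulk RNA, fewer cells of a type and less RNA per cell cannot be told apart.

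**Figure D2:**
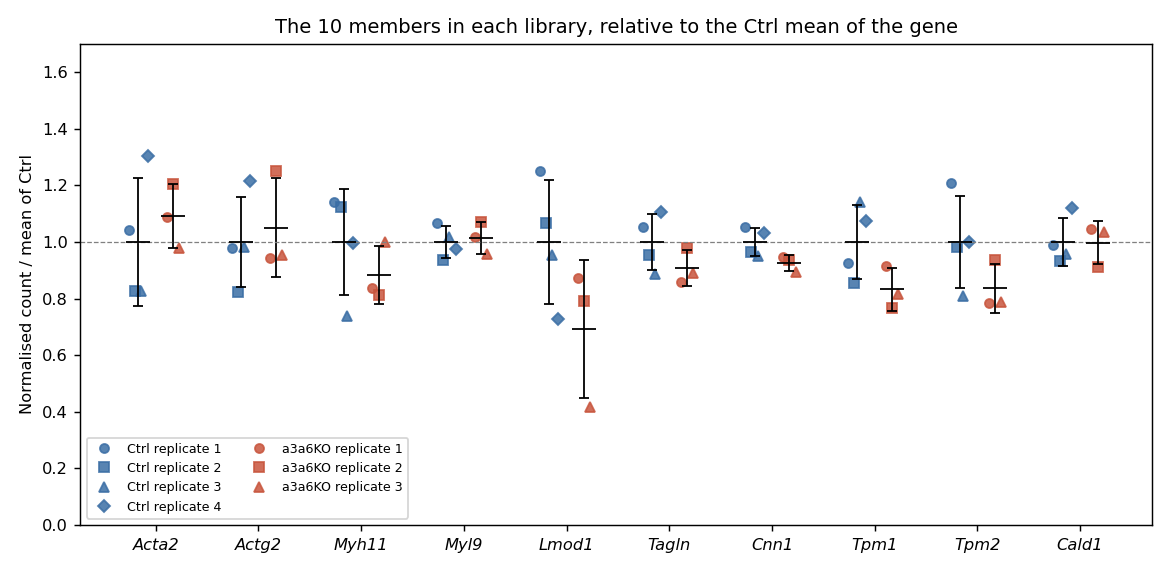
Normalised read count of each gene in each library divided by the mean of the 4 Ctrl libraries (vertical axis, no unit), with symbols for replicates and black bars for the group mean ± SD. Most values lie near 1, with a3a6KO replicate 3 lowest for Lmod1 at 1475 against a Ctrl mean of 3542.

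Acta2 encodes smooth muscle α-actin, the main actin of the contractile filaments of these cells (identifier GSMG0020318, mm10 chromosome 19, 34240336 to 34255373). Its normalised read counts were 581812, 460944, 462098 and 727845 in Ctrl replicates 1 to 4 and 607587, 673537 and 546497 in a3a6KO replicates 1 to 3. The controls spanned the whole range of the mutants, with Ctrl replicate 4 highest and Ctrl replicates 2 and 3 lowest. Means were 558175 ± 126532 (SD, n = 4) and 609207 ± 63535 (SD, n = 3). It had a log2 fold change of 0.15 (SE 0.31, 95% interval −0.55 to 0.85, limma adjusted p = 0.937). In fold terms the interval ran from 0.681 to 1.80. Leaving out 1 library gave 0.06 (without Ctrl replicate 2) to 0.28 (without Ctrl replicate 4). Under quantile normalization the change is 0 by construction, since Acta2 ranked first everywhere.

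Actg2 encodes smooth muscle γ-actin, typical of visceral muscle (GSMG0033252, chromosome 6, 83512910 to 83536251). Its counts were 21112, 17741, 21142 and 26141 in the controls and 20330, 26961 and 20559 in the mutants. The highest value was that of a3a6KO replicate 2 and the lowest that of Ctrl replicate 2, so neither group stood apart. The log2 value of mutants minus controls was 0.07 (SE 0.18, 95% interval −0.34 to 0.49, limma adjusted p = 0.950), and the sign turned under quantile normalization (−0.07) and on leaving out Ctrl replicate 2 (−0.0168) or a3a6KO replicate 2 (−0.0612). Acta2 and Actg2 code for nearly the same protein, but none of the 50-base windows of the Actg2 transcript recurred in a transcript of another gene. For Acta2, 7 of 1986 windows did, in 6 other genes. Read length was not stated in the labels.

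Myh11, the smooth muscle myosin heavy chain that forms the motor (GSMG0015475, chromosome 16, 14194527 to 14291408), was counted at 47298, 46441, 30562 and 41217 in the controls and 34672, 33584 and 41335 in the mutants. Ctrl replicate 3 was the lowest of all 7 libraries, below the mutants. In limma the log2 fold change was −0.17 (SE 0.20, 95% interval −0.62 to 0.29, adjusted p = 0.897). Leaving out 1 library gave −0.30 (without Ctrl replicate 3) to −0.09 (without Ctrl replicate 1). Of the 6401 windows of 50 bases in Myh11, 26 recurred in the non-muscle paralogs Myh9 or Myh10.

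Myl9 encodes the regulatory light chain whose phosphorylation starts contraction (GSMG0022062, chromosome 2, 156775418 to 156781657). Its counts were 143162, 125680, 136389 and 130721 in the controls and 136337, 143339 and 128341 in the mutants. The ranges of the groups overlapped almost fully, and the highest value of all 7 was only 1.14 times the lowest. Means were 133988 ± 7519 (SD, n = 4) and 136006 ± 7504 (SD, n = 3), with a log2 fold change of 0.02 (SE 0.19, 95% interval −0.42 to 0.46, limma adjusted p = 0.987). The sign turned with TMM scaling (−0.0098) and on leaving out either of 2 libraries (−0.0084 and −0.0168). The value was 0.45 under quantile normalization, which sets each value by its rank within the library. Myl9 ranked 3, 5, 7 and 7 in the controls and 3, 2 and 4 in the mutants. The coefficient of variation among controls was 5.61% for Myl9 and 4.90% for Cnn1, where the median over the 2565 genes with a mean of at least 1000 was 13.04%. Acta2 was at 22.7% and Lmod1 at 21.8%, so these 2 genes of the set varied most from control to control.

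Lmod1 encodes leiomodin 1, a nucleator of actin filaments in smooth muscle (GSMG0000811, chromosome 1, 135324812 to 135368065). Its counts were 4425, 3780, 3380 and 2580 in the controls and 3090, 2805 and 1475 in the mutants. Ctrl replicates 1 to 3 lay above all mutants, while Ctrl replicate 4 lay below a3a6KO replicates 1 and 2, and a3a6KO replicate 3 was the lowest of all. Means were 3542 ± 772 (SD, n = 4) and 2457 ± 862 (SD, n = 3). This was the largest difference among the 10, with a log2 fold change of −0.57 (SE 0.27, 95% interval −1.19 to 0.05) and an unadjusted p of 0.0674 in limma, adjusted p = 0.789. Without a3a6KO replicate 3, the library of lowest depth, in which Lmod1 had 829 reads, it was −0.24, with library weights it was −0.37, and leaving out each other library gave −0.46 to −0.77.

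Tropomyosins lie along the actin filament and control the access of myosin. Tpm1 (GSMG0040953, chromosome 9, 67022593 to 67049262) was counted at 16645, 15385, 20518 and 19332 in the controls and 16463, 13806 and 14654 in the mutants. Replicates 2 and 3 of the mutants lay below all controls, and replicate 1 lay among the controls. The log2 fold change was −0.26 (SE 0.16, 95% interval −0.61 to 0.09, limma adjusted p = 0.804). Tpm2 (GSMG0027729, chromosome 4, 43513724 to 43523554), the β-tropomyosin, was counted at 92974, 75466, 62324 and 76797 in the controls and 60322, 72022 and 60569 in the mutants. Replicates 1 and 3 of the mutants lay just below Ctrl replicate 3, the lowest control, and replicate 2 lay among the controls. It had a log2 fold change of −0.25 (SE 0.20, 95% interval −0.70 to 0.20, limma adjusted p = 0.853), and it was −0.15 without Ctrl replicate 1, the highest library.

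Cnn1 encodes calponin 1, which binds actin and inhibits the myosin ATPase (GSMG0039235, chromosome 9, 22099253 to 22109630). Its values were 68189, 62629, 61629 and 66785 in the controls and 61280, 60635 and 57863 in the mutants. Every mutant lay below every control, with a narrow gap from a3a6KO replicate 1 at 61280 to Ctrl replicate 3 at 61629. Means were 64808 ± 3173 (SD, n = 4) and 59926 ± 1815 (SD, n = 3), a difference of −7.53%. The log2 value of mutants minus controls was −0.11 (SE 0.16, 95% interval −0.48 to 0.25, limma adjusted p = 0.913). The limma SE draws on the spread of other genes of like level as well as on that of Cnn1.

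Tagln, transgelin or SM22α, an actin-bundling protein and a classical smooth muscle marker (GSMG0040695, chromosome 9, 45929628 to 45936058), was counted at 81591, 74016, 68577 and 85683 in the controls and 66459, 75806 and 68869 in the mutants. The groups overlapped, with a3a6KO replicate 1 the lowest and Ctrl replicate 4 the highest. In limma the log2 fold change was −0.14 (SE 0.18, 95% interval −0.54 to 0.27, adjusted p = 0.904), with −0.05 under quantile normalization. An unnamed feature on the opposite strand (GSMG0039465, chromosome 9, 45930112 to 45932436) lay within Tagln and began at the same base as the antisense gene Gm48529 of GENCODE. Its counts were 44106, 39434, 35464 and 45021 in the controls and 34842, 40508 and 35728 in the mutants, which was 51.7% to 54.1% of the Tagln value in every library. Whether counting used strand was not stated, so reads of Tagln and of this feature cannot be told apart. It was named after its values were seen.

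Cald1 encodes caldesmon, which binds actin and myosin and restrains their interaction (GSMG0031672, chromosome 6, 34598542 to 34775469). Its counts were 13415, 12620, 12954 and 15191 in the controls and 14188, 12331 and 14018 in the mutants. The lowest and the highest library belonged to different groups and the rest were interleaved. The log2 fold change was −0.0026 (SE 0.14, 95% interval −0.31 to 0.30, limma adjusted p = 0.998), the narrowest interval of the set.

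**Figure D3:**
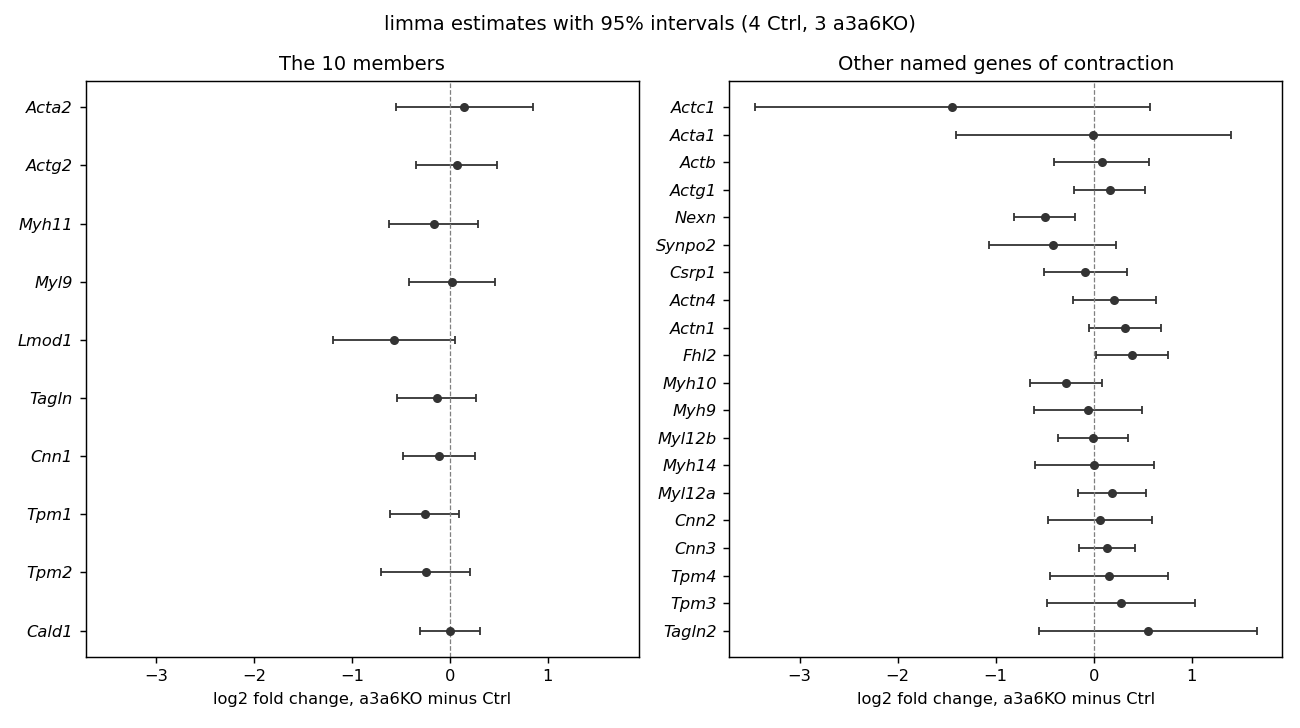
Log2 fold changes, a3a6KO minus Ctrl (horizontal axis), with 95% limma intervals for the 10 genes (left) and for the other named genes of contraction that were tested (right). All 10 intervals on the left include 0, and Lmod1 lies lowest at −0.57.

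Some members went together across the libraries and others did not. Over the 7 libraries, which these values share, 33 of the 45 pairs had a positive Pearson correlation of their log2 levels, with a median r of 0.26 and a range from −0.39 (Lmod1 with Cald1) to 0.85 (Tagln with Tpm2). Tagln, Cnn1 and Tpm2 went together, with r of 0.85, 0.84 and 0.81 for their pairs, and so did the actins, Acta2 with Actg2, at 0.82. By rank (Spearman) Tagln with Cnn1 had 0.57 and Acta2 with Actg2 0.64, while Tagln and Cnn1 with Tpm2 had 0.89 and 0.82. Across these sets Pearson r was lower, from 0.15 for Actg2 with Tpm2 to 0.54 for Acta2 with Tagln. Tpm1 with Tpm2 had −0.0080. These are descriptions of 7 points. Ctrl replicate 1 was the highest library for 4 members (Myh11, Cnn1, Tpm2, Lmod1) and Ctrl replicate 4 for 3 (Acta2, Tagln, Cald1), whereas a3a6KO replicate 3 was among the lowest pair of libraries for 5. The mean log2 level of the 10 was 15.38 ± 0.11 (SD, n = 4) in the controls and 15.26 ± 0.09 (SD, n = 3) in the mutants.

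Of 10041 other gene models with a mean of at least 100, 648 had no symbol or a joint one and were skipped. Among the rest, log2 levels were set against the mean of the 10 members over the 7 libraries. Those that followed it most closely were St3gal3 (Pearson r 0.965), Slc35a2 (0.958), Ppp1r12c (0.956), Ecscr (0.953), Abcb9 (0.943) and Anks1 (0.942). St3gal3 is a sialyltransferase and Slc35a2 the UDP-galactose transporter of the Golgi, and Ppp1r12c is a relative of the myosin phosphatase targeting subunit. Ppp1r12c was counted at 2377, 1803, 1685 and 2273 in the controls and 1754, 1582 and 1208 in the mutants, with a log2 fold change of −0.43 (SE 0.18) and a limma adjusted p of 0.768. Over all 10041, skipped ones included, 17 had an r above 0.9. With 7 points and so many genes such values are a ranking only.

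Each smooth muscle isoform was then set against its paralogs within the same library, which removes the effect of library scaling. These shares of normalised read counts are not corrected for length and were compared between libraries only. Acta2 and Actg2 made up 82.0% ± 1.67 (SD, n = 4) of the counts of the 6 actin genes in the controls and 82.4% ± 1.12 (SD, n = 3) in the mutants, the rest being almost entirely the cytoplasmic actins Actb and Actg1, with the skeletal actin Acta1 at 158 and 183 counts. Acta2 took 96.2% ± 0.42 of the 2 smooth muscle actins in Ctrl and 96.4% ± 0.31 in a3a6KO. Myh11 took 93.0% ± 0.71 and 92.7% ± 0.81 of the myosin II heavy chain genes, with Myh9, Myh10 and Myh14 as the non-muscle forms. Myl9 took 91.4% ± 1.29 and 90.7% ± 0.85 of the regulatory light chains, beside the non-muscle Myl12a and Myl12b. In the controls and the mutants, Myl12a averaged 10909 and 12317 counts, Myl12b 1649 and 1620, Myh9 2405 and 2254, and Myh14 177 and 170.

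Among the calponins, Cnn1 took 84.1%, 84.8%, 85.2% and 84.5% in the controls and 82.0%, 80.8% and 84.9% in the mutants. Mutant replicates 1 and 2 lay below all controls and replicate 3 among them. Its relatives Cnn2 and Cnn3, made in many cell types, averaged 6824 and 4933 in the controls and 7293 and 5420 in the mutants. Tagln took 92.95% to 97.7% of the transgelins in the controls and 93.9%, 95.8% and 85.8% in the mutants, so a3a6KO replicate 3 stood lowest. In that library Tagln2, the form of non-muscle and many other cells, had 11383 counts, against 1901 to 6495 in all others, and Tagln3 was at most 8.29 counts throughout. Tpm1 and Tpm2 together took 97.5% ± 0.93 and 96.8% ± 1.01 of the tropomyosins in the controls and the mutants, beside Tpm4 at 1922 and 2072 counts and Tpm3 at 424 and 552. Tpm2 took 80.75% ± 4.21 and 81.0% ± 2.71 of Tpm1 and Tpm2. The largest difference against its spread was that of the Cnn1 share, −2.09 percentage points with a pooled SD of 1.35. The exact two-sided permutation p ran from 0.229 for Cnn1 to 1 for Tpm2, with adjusted p over the 8 shares of 0.838 to 1. With 35 splits the smallest p is 0.0286, so a single share could not pass adjustment over 8, and these p-values do not show that the shares were alike.

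**Figure D4:**
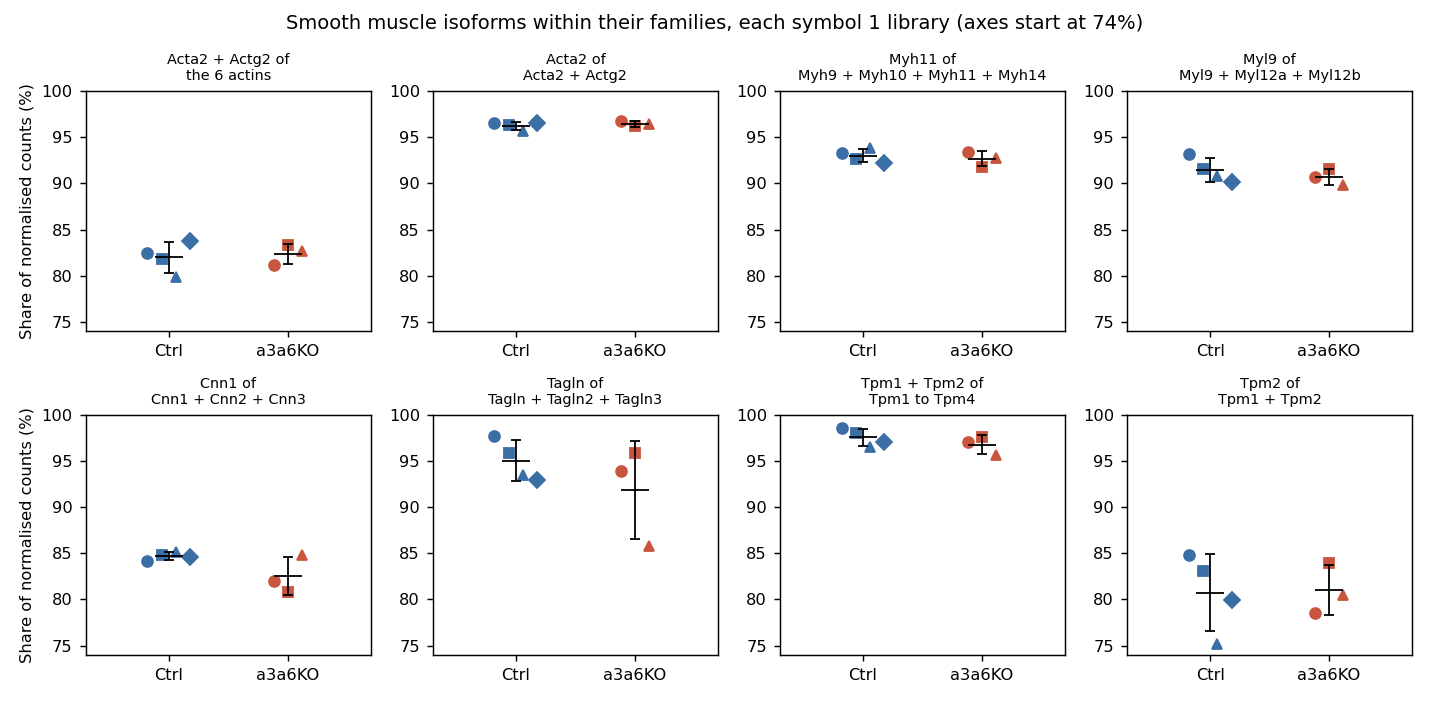
Share of each smooth muscle isoform in the normalised read counts of its gene family (vertical axis, percent, from 74%), with 1 symbol per library (blue Ctrl, red a3a6KO) and black bars for the mean ± SD. The groups overlap in all 8 panels, and a3a6KO replicate 3 lies apart for Tagln at 85.8%.

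The rest of the contraction machinery was read from a list of 51 genes, of which 47 passed the filter on low values. In limma 0 of the 47 were called (0% of all genes tested were). At an unadjusted p under 0.05 limma held 2 of the list, where it held 6.32% of all genes tested. Count tests in edgeR and DESeq2 called 0 as well (0% and 0.483% of all genes). Of the 47, 24 had a log2 fold change above 0 and 23 below, and the median was 0.0040. All mutants lay above all controls in 2 of the 47 (4% of all genes tested) and below in 1 (3.51%). Among genes that control light chain phosphorylation, all 10 were tested, 5 lay above 0 and 5 below, and the summed value was 44982 to 47943 in Ctrl and 43313 to 46522 in a3a6KO. Motor and light chain genes summed to 37526 to 41678 in Ctrl and 40266 to 43053 in a3a6KO. Of the other thin filament and calponin genes 7 were tested, 6 above 0 and 1 below, with a median of 0.14, and of the genes of dense bodies and anchoring 20, with 8 above and 12 below. Cytoplasmic actin Actg1 was counted at 39478, 33246, 41678 and 41963 in the controls and 44313, 41968 and 44658 in the mutants. All 3 mutants lay above all controls, barely so for a3a6KO replicate 2 beside Ctrl replicate 4, with a log2 fold change of 0.16 (SE 0.16) and a limma adjusted p of 0.874. Actb, the other cytoplasmic actin, had 0.08 (SE 0.21).

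The smallest p of the list was that of Nexn, nexilin, an actin-binding protein of adhesions and Z-discs. Nexn was counted at 1827, 1703, 1385 and 1791 in the controls and 1084, 1267 and 1196 in the mutants. All 3 mutants lay below all 4 controls, a pattern held by 3.51% of all genes tested. The groups averaged 1676 ± 201.4 (SD, n = 4) and 1182 ± 92.5 (SD, n = 3). Nexn had a log2 fold change of −0.50 (SE 0.14) and a limma adjusted p of 0.551 (unadjusted 0.0056). Fhl2, a LIM-domain protein that binds actin-linked and nuclear partners, was counted at 1298, 882, 1070 and 1344 in the controls and 1422, 1473 and 1560 in the mutants. All mutants lay above all controls (4% of all genes tested), with a log2 fold change of 0.39 (SE 0.16) and a limma adjusted p of 0.768. The actin cross-linker Actn1 had 0.32 (SE 0.16), the non-muscle myosin Myh10 −0.28 (SE 0.16), the cardiac actin Actc1 −1.44 (SE 0.89) and Synpo2, synaptopodin 2 of dense bodies, −0.42 (SE 0.29). None of these passed the test. Among the most abundant genes of the list, Actn4 averaged 61897 in Ctrl and 71402 in a3a6KO (0.21, SE 0.19) and Csrp1, a LIM protein of smooth muscle, 52321 and 48866 (−0.08, SE 0.19).

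The same smooth muscle genes are also made by the muscle cells of vessels, and Tpm1 and Tpm2 by skeletal muscle, so markers of both were read as well. Pericyte and vascular smooth muscle markers, 13 in all, summed to 3212 to 5400 in the controls and 4086 to 5844 in the mutants, where the 10 members summed to 879574 to 1192294 and 954180 to 1114825. Of these markers 12 were tested and 11 had a log2 fold change above 0, where 49.5% of all genes tested did. The median was 0.55. In limma 3 had an unadjusted p under 0.05 (6.32% of all genes), and limma, edgeR and DESeq2 called 0. Gja4 had 0.83 (SE 0.20) and was the 1 of the 12 with all mutants above all controls, a pattern held by 4% of all genes tested. Their part in the values of the members was not tested. For skeletal muscle, Tnnc2, Pvalb and Tcap were at 0 in all 7 libraries, and Myh4 and Tnnt3 were above 0 in 1 library each. The 14 skeletal muscle markers summed to 430 to 1393 in Ctrl and 464 to 911 in a3a6KO, most of it Acta1, Myh2 and Tnni2. In limma and edgeR 0 of the 8 tested were called, with 1 at an unadjusted p under 0.05 in each (6.32% of all genes in limma). DESeq2 called 1 (0.483% of all genes), Tnni2, which was lower in the mutants (limma log2 fold change −1.68, SE 0.42).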

How the data were processed

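Per the labels' protocols, SMARTer v4 libraries were made from sorted basal cells. The deposited values are a signal, gene counts that the authors scaled by DESeq2 size factors, per the file title and the submitters' processing notes. Those notes list STAR 2.4.0 and mm10. No source used here states the counter or whether it used strand. Values are not corrected for length. Whole reads were recovered for 100% of values, within 0.01 of a read. Of the low recovered counts, 61.8% (a3a6KO replicate 2) to 63.8% (Ctrl replicate 3) were even. Whether some fragments were counted more than once was not tested, so depths and count tests may not rest on independent reads. Values were taken as log2(value + 1), which understates changes of low genes, and fitted by limma 3.58.1 (R 4.3.3) with a trended prior, for 16889 genes that reached 10 in at least 3 libraries. P-values were two-sided and Benjamini-Hochberg adjusted, with calls under 0.05. Shares were compared by exact permutation over 35 splits. Alternatives were other pseudocounts, filters, scalings and weights, leaving out each library, and, for the recovered reads, the quasi-likelihood test of edgeR 4.0.16 and DESeq2 1.42.0. The labels give no batch. Scripts were tested on simulated data. The members and lists were chosen with earlier results of these data known. All members are named, and from the list of other contraction genes the 6 of smallest p, the 4 of highest mean and those used in a share. Marker lists of basal, luminal, pericyte, endothelial, fibroblast, immune and skeletal muscle cells were counted. Summed fibroblast markers were 16509 to 27358 in Ctrl and 20801 to 31293 in a3a6KO, and immune markers 209 to 892 and 377 to 858.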

Additional observations from a re-analysis of the deposited data

Results flagged for a closer look

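Outlying controls were sought in 40 sets of 4 control values by Dixon's ratio of gap to range, where chance alone marks about 1 in 20 sets, and 2 were found. Myh9, the main non-muscle myosin heavy chain, had 1447 in Ctrl replicate 3, where the remaining controls lay between 2632 and 2847. Myh11 was lowest of all 7 libraries there too. Tagln3, a neuronal transgelin, had 4.85 in Ctrl replicate 2, against 1.51 to 2.01 in the other controls, a difference of a few reads.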

How the results depend on the processing

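Of 170 recomputed fold changes of the members (17 alternatives each), 160 kept their sign, 1 was exactly 0 (Acta2 under quantile normalization), 9 turned and none passed the threshold (smallest adjusted p 0.610). Actg2 turned under quantile normalization (−0.0726) and when Ctrl replicate 2 (−0.0168) or a3a6KO replicate 2 (−0.0612) was left out, in a leave-one-out range up to 0.17. Cald1 turned with library weights (0.0166) and on leaving out Ctrl replicate 4 (0.0538) or a3a6KO replicate 2 (0.0619), in a range from −0.0392. Myl9 turned with TMM scaling (−0.0098) and on leaving out Ctrl replicate 2 (−0.0084) or a3a6KO replicate 2 (−0.0168), in a range up to 0.0629. The count of called genes was 0 in all alternatives but DESeq2, with 72. The number of members below 0 ran from 6 to 9, and their median from −0.16 to −0.08. Leaving out 1 library moved the difference in share, in percentage points, from −0.356 to 0.993 for the smooth muscle actins, −0.0124 to 0.331 for Acta2, −0.716 to 0.0944 for Myh11 and −1.59 to 1.60 for Tpm2, so these 4 turned sign. Leaving out Ctrl replicate 3 turned the actins (−0.356), Acta2 (−0.0124) and Tpm2 (−1.59), a3a6KO replicate 2 the actins (−0.0889), Myh11 (0.0944) and Tpm2 (−1.21), and Ctrl replicate 4 Tpm2 (−0.0399). The other shares stayed below 0, at −5.155 to −0.144 for Tagln and −1.19 to −0.207 for Tpm1 with Tpm2 (both nearest 0 without a3a6KO replicate 3), −1.16 to −0.159 for Myl9 (nearest 0 without Ctrl replicate 1) and −3.24 to −1.225 for Cnn1 (nearest 0 without a3a6KO replicate 2). The cause was not tested. No paired analysis was possible because the labels give no litter or pairing. They give no replicate numbers either, and those used here follow the order of the samples. With 3 libraries against 4, the intervals of the members leave folds from 0.437 to 1.80 within them.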
